A study of Mus musculus with 6 samples.

Results

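The genes described here encode 6 matrix metalloproteinases (MMPs: Mmp2, Mmp3, Mmp9, Mmp12, Mmp14 and Mmp19) and the 4 tissue inhibitors of metalloproteinases (TIMPs: Timp1, Timp2, Timp3 and Timp4). They were taken by gene symbol from a table of 16199 symbols, and all 10 were found and passed the filter on low values. Messenger RNA was sequenced from infarcted mouse myocardium 7 days after infarction by ligation of the left anterior descending coronary branch. One group of mice had the genotype ITIH5 knockdown (3 libraries) and the other was wild type (3 libraries); the study asked whether ITIH5, a hyaluronan-binding matrix protein, acts on scarring after infarction through immune cells. Both groups had the ligation, and no uninjured heart is analysed here. The labels give neither strain, age and sex nor how ITIH5 was knocked down, in which cells, or whether each library came from its own animal. A p-value here therefore reflects library-to-library spread alone, and that spread may be technical.

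MMPs are zinc-dependent enzymes that cut collagens, elastin and other matrix proteins, and TIMPs bind to their active site and block it. Most MMPs are made as inactive precursors whose inhibitory part must be removed. MMP14 sits in the cell membrane and, with TIMP2 as an adaptor, activates the precursor of MMP2. After an infarct in the mouse, neutrophils and macrophages bring MMP9 and MMP12 into the wound, while fibroblasts make much of the MMP2, MMP14 and TIMP1 of the forming scar. The balance of proteases and inhibitors is a classical measure of matrix turnover in the healing heart.

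The labels and the libraries need a word before the results. Itih5 itself, on chromosome 2 from 10153571 to 10256529 on the plus strand (mm10), was at 18.4, 10.5 and 19.96 in the libraries labelled knockdown, against 9.73, 13.1 and 17.2 in wild type. The groups overlapped and the transcript was not lower under the knockdown label (log2 difference 0.26, SE 0.27, limma adjusted p = 0.645; exact two-sided permutation p = 0.5, where 0.1 is the smallest that 3 against 3 libraries can give). Leaving out each library in turn gave 0.06 (without wild-type replicate 1) to 0.52 (without knockdown-labelled replicate 2). All directions below go by the labels. Values are on a scale close to TPM (transcript abundance as a share of the library, corrected for transcript length) whose columns do not sum alike, so a further adjustment by the authors is likely but not described; the number of reads behind them is unknown. The library labelled knockdown replicate 1 stood apart from the rest. It correlated with the other libraries at 0.948 to 0.972, where all other pairs lay between 0.966 and 0.984 (Pearson's r across genes, which are not independent). Its summed level of 9 cardiomyocyte markers was 20006, against 10652 and 6382 in the other 2 libraries labelled knockdown and 6169 to 7597 in wild type. Of these 9 markers, 9 had a higher mean log2 value under the knockdown label (median log2 difference 0.71). Without overlap between groups, 4 were higher, against 12.6% of all tested genes. At an unadjusted limma p under 0.05, 1 was higher, against 8.29% of all tested genes. The 10 macrophage markers summed to 3880 in knockdown-labelled replicate 1, against 7741 and 6613 in the other 2 and 8270 to 11043 in wild type. That library also had the lowest sums of neutrophil, fibroblast, myofibroblast, adipocyte, mesothelial and B cell markers. Its sums were highest for endothelial, red cell, and pericyte and smooth muscle markers. In bulk tissue, fewer cells of a type and less RNA per cell cannot be told apart.

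The start regions of 4 of these genes are printed because they show how differently the members are built upstream of the transcript. Each is the 100 bases before a RefSeq transcript start (build GRCm38.p6, the same coordinates as mm10), all on the plus strand. Capitals mark the motif for AP-1 (TGAGTCA or TGACTCA, either strand), the factor of Fos and Jun proteins known to drive several MMP genes, or the GC box (GGGCGG, either strand), which Sp1 binds.
Mmp3 (chr9:7445722-7445821): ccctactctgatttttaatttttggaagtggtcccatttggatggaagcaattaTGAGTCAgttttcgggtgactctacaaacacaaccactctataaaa
Mmp12, downstream start (chr9:7347274-7347373): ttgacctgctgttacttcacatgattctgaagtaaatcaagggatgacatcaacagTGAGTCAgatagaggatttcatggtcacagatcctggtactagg
Mmp14 (chr14:54431498-54431597): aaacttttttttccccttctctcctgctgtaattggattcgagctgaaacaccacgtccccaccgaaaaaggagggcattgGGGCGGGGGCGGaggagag
Timp1 (chrX:20870066-20870165): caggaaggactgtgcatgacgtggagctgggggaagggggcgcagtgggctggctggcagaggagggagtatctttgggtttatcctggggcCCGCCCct

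Of the 10 genes, 7 had an entry among the RefSeq start regions used here, with 8 starts, since Mmp12 has a start at each of 2 places. Mmp3 held the AP-1 motif 46 bases before its start and the downstream start of Mmp12 held it 44 bases before, whereas the other 6 starts did not hold these letters. Over all 32851 start regions of 300 bases, 5.20% held the AP-1 motif. Mmp14 held adjoining GC boxes 19 and 13 bases before its start. Timp1, Timp2 and Timp3 held a GC box 8, 37 and 15 bases before theirs, and Timp3 held another 13 bases after its start. The GC box occurred in 35.7% of all start regions. Timp4, Mmp3 and both Mmp12 starts held none. In the 250 bases before the start, G or C made up 37.6% for Mmp3 and 39.6% and 40% for Mmp12, 53.6% for Timp4, 54.4% for Timp1, 55.2% for Mmp14, 65.6% for Timp3 and 68% for Timp2, against a median of 52.4% over all start regions. These are descriptions of letters, not of binding.

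Levels spanned a wide range in both groups and kept nearly the same order. In the libraries labelled knockdown, Timp1 averaged 457 ± 151 on the TPM-like scale, Mmp2 401 ± 46.6, Timp2 368 ± 77.7 and Mmp14 252 ± 62.0 (SD, n = 3). In wild type the same genes led, with Timp1 at 641 ± 50.7, Mmp2 at 459 ± 73.4, Timp2 at 457 ± 36.5 and Mmp14 at 369 ± 56.1 (SD, n = 3). These 4 genes lay above 96.4% of all tested genes in both groups. Neighbours among these 4 had overlapping ranges in both groups, except that Timp1 lay clear of Mmp2 in wild type. Timp3 and Mmp12 followed at intermediate levels, then Mmp19, while Mmp3, Mmp9 and Timp4 were near the bottom. Mmp14 lay clear of Timp3 in both groups. The ranges of Timp3 and Mmp12 overlapped in wild type only, and Mmp19 lay clear of the next gene, Mmp3, in wild type. The lowest place was taken by Mmp9 in the libraries labelled knockdown and by Timp4 in wild type, where the ranges of Timp4 and Mmp9 overlapped.

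**Figure D1:**
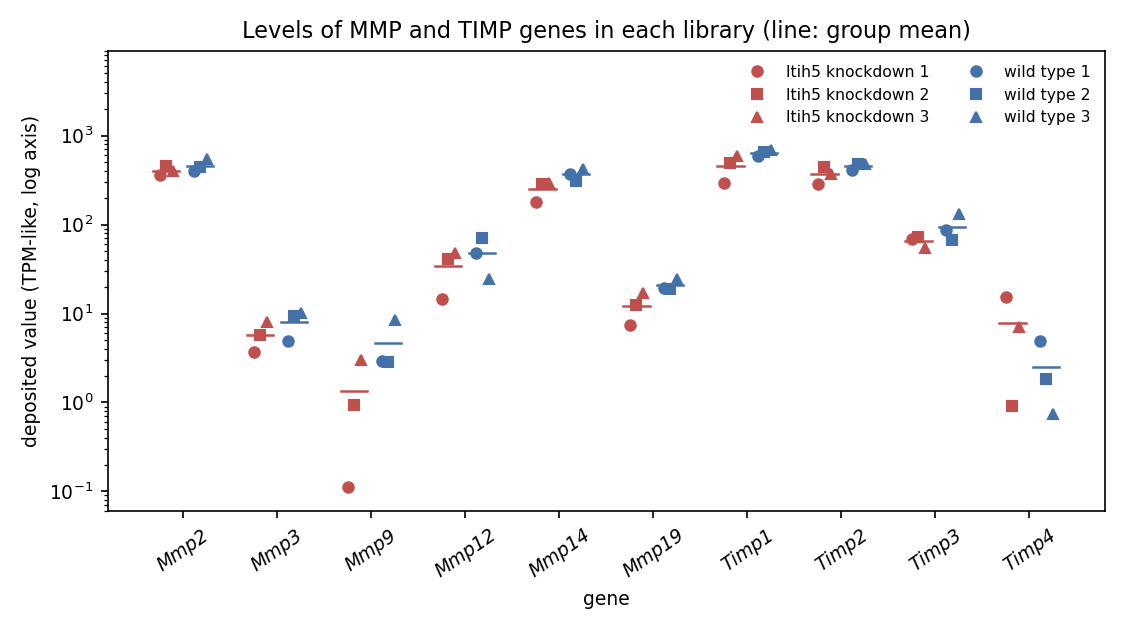
Deposited value of each gene in each library (log axis, TPM-like scale); points are libraries, shaped by replicate number, and short lines are group means. Timp1, Mmp2, Timp2 and Mmp14 lie highest in both groups, and the red circle, knockdown-labelled replicate 1, is the lowest point for 8 of the 10 genes.

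Of the 10 genes, 9 had a lower mean log2 value in the libraries labelled knockdown and 1, Timp4, a higher one, where 49.2% of the 14025 tested genes had a lower mean. The 10 genes were chosen with earlier results of these data known, so the shares in this paragraph describe them and do not test them as a set. None of the 10 passed the test (limma, Benjamini-Hochberg adjustment over all tested genes, threshold 0.05), and neither did any other gene, 0% of those tested. At an unadjusted p under 0.05, 3 of the 10 were lower (Mmp14, Mmp19 and Mmp9) and 0 higher, where 6.55% of all tested genes were lower and 8.29% higher (919 and 1162 genes; 1395 and 457 after rescaling all libraries to the same sum, which moved the median of all genes to -0.13 and that of the 10 to -0.63; 640 and 1470 with mitochondrial genes left out). Without wild-type replicate 3, 0 of the 10 were lower at this level. The groups did not overlap for 2 of the 10, Mmp14 and Mmp19, both lower, where 9.88% of tested genes were lower and 12.6% higher without overlap. The median log2 difference of the 10 genes was -0.49, against 0.00 over all tested genes, whose quartiles were -0.16 and 0.20. Without knockdown-labelled replicate 1 this median was -0.21. That library held the lowest value for 8 of the 10 genes, where it held the lowest for 28.2% of all tested genes. Wild-type replicate 3 held the highest value for 7 of the 10, against 18.9% of all tested genes.

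**Figure D2:**
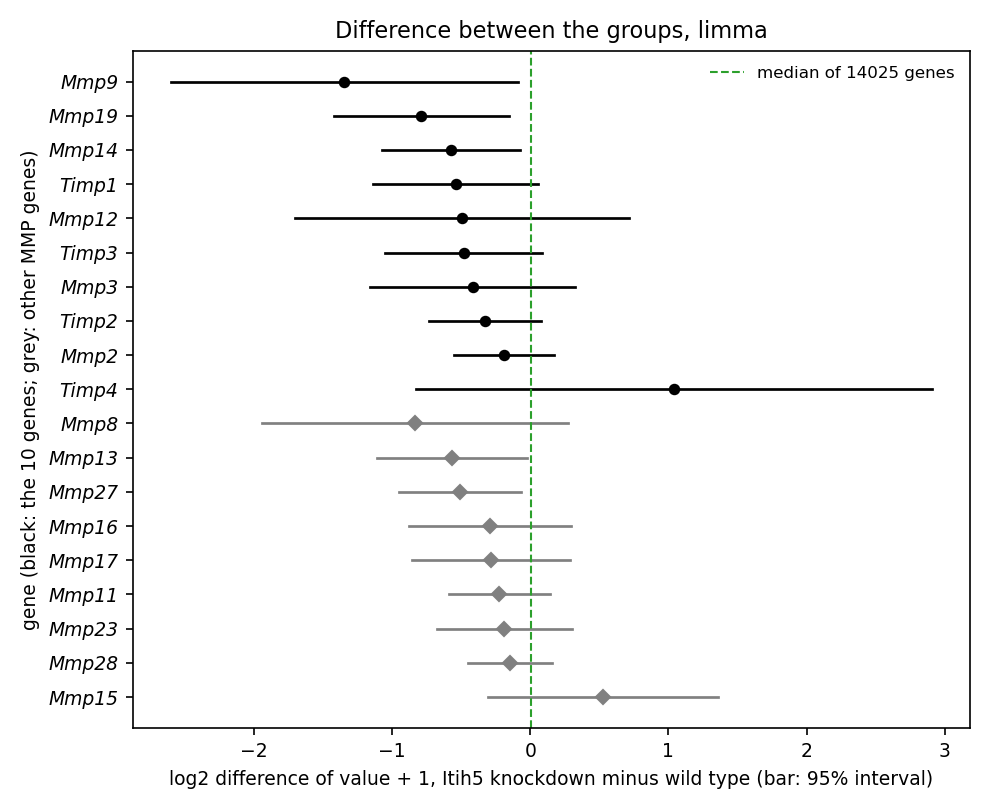
Log2 difference of value + 1, Itih5 knockdown minus wild type, with its 95% interval from limma, for the 10 genes (black) and 9 other tested MMP genes (grey); the dashed line is the median of 14025 tested genes. Of the 10 genes, 9 lie left of that line, and the intervals of Mmp9, Mmp19 and Mmp14 end left of it before any adjustment for the number of genes tested.

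Mmp14, the membrane-bound protease that activates MMP2 and cuts fibrillar collagen, lies on chromosome 14 from 54431612 to 54445364, plus strand. It was at 180, 284 and 290 in the libraries labelled knockdown, against 370, 313 and 425 in wild type. All 3 libraries labelled knockdown lay below all 3 wild-type libraries, the nearest pair being 290 and 313. The log2 difference was -0.57 (SE 0.21, 95% interval -1.07 to -0.07, limma adjusted p = 0.310), a mean at 68.1% of wild type. Without knockdown-labelled replicate 1 the difference was -0.35 (limma adjusted p = 0.475; over all alternatives 0.197 to 0.649).

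Mmp19, a secreted MMP that cuts basement membrane components, lies on chromosome 10 from 128790910 to 128800824, plus strand. Values were 7.38, 12.5 and 17.0 in the libraries labelled knockdown and 19.6, 18.8 and 24.7 in wild type. Again every library labelled knockdown was below every wild-type library, though replicate 3 was close. The log2 difference was -0.79 (SE 0.27, 95% interval -1.42 to -0.16, limma adjusted p = 0.301), a mean at 58.3% of wild type, and it was -0.49 without knockdown-labelled replicate 1. Tmem198b, which overlaps it on the minus strand, was low and similar throughout, at 5.81, 4.80 and 5.99 in the libraries labelled knockdown and 5.86, 4.68 and 6.34 in wild type.

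Mmp9, the gelatinase that neutrophils store and macrophages release, lies on chromosome 2 from 164940780 to 164955850, plus strand. Its values were 0.112, 0.928 and 2.99 in the libraries labelled knockdown, against 2.93, 2.82 and 8.38 in wild type. Replicates 1 and 2 of the libraries labelled knockdown were lowest and wild-type replicate 3 was far above the rest, while the remaining 3 libraries were alike. Low values in the table lie near whole multiples of a step of 0.889 to 1.163 that differs by library, and those alike libraries lay at 3.001, 3.01 and 3.03 steps. Knockdown-labelled replicate 1, at 0.0963 steps, is the exception among libraries, with 1078 genes above 0 and under 0.2 where the other libraries had 0. The log2 difference was -1.35 (SE 0.53, 95% interval -2.60 to -0.09, limma adjusted p = 0.319), the largest in size among the 10 genes and also among the least precise. It was -0.91 without knockdown-labelled replicate 1, -0.92 without wild-type replicate 3 and -0.59 with a pseudocount of 5.

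Markers of other cells moved with Mmp9, and with several of the other genes, across libraries. The summed level of the 8 neutrophil markers found was 29.6, 46.0 and 72.9 in the libraries labelled knockdown and 84.2, 36.2 and 129 in wild type, so that wild-type replicate 3 was highest here too. None of the 8 was at 0 in all libraries. S100a9, their most abundant gene, was at 13.4, 13.3 and 26.9 in the libraries labelled knockdown and 33.3, 10.1 and 54.2 in wild type, and S100a8 was at 4.13, 11.5 and 21.0 against 20.6, 6.40 and 41.5. Of the 7 that were tested, 7 had a lower mean, with a median log2 difference of -0.68. B cell markers also moved with Mmp9: their 5 genes summed to 61.1, 67.4 and 519.9 in the libraries labelled knockdown and 799.1, 672 and 1321 in wild type, and 5 of 5 had a lower mean. Mesothelial markers, 6 of 6 with a lower mean, summed to 18.7, 31.5 and 169 against 80.9, 119 and 103. Over all tested genes, 49.2% had a lower mean. At an unadjusted p under 0.05, 1 neutrophil, 2 B cell and 0 mesothelial markers were lower, against 6.55% of all tested genes. Without overlap, 1 neutrophil, 1 B cell and 0 mesothelial markers were lower, against 9.88%. No B cell or mesothelial marker was at 0 throughout. The part of any of these lists in the Mmp9 values was not tested.

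Mmp12, the macrophage elastase, lies on chromosome 9 from 7344381 to 7369499, plus strand, and Mmp3 lies downstream of it in the same cluster of MMP genes. Its values were 14.5, 40.6 and 47.9 in the libraries labelled knockdown and 47.8, 70.7 and 24.3 in wild type. The groups overlapped, with replicate 1 lowest under the knockdown label and replicate 3 lowest in wild type. The log2 difference of -0.50 (SE 0.51, 95% interval -1.71 to 0.72, limma adjusted p = 0.633) rested on knockdown-labelled replicate 1, without which it was 0.018 (limma adjusted p = 0.990; over all alternatives 0.434 to 0.990). It was -0.15 without wild-type replicate 2, -0.81 without knockdown-labelled replicate 3 and -0.90 without wild-type replicate 3. The gene Mmp1b overlaps Mmp12 on the other strand and was not analysed here.

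Of 10 macrophage markers, 10 had a lower mean log2 value in the libraries labelled knockdown (median log2 difference -0.55, 5 without overlap). Over all tested genes, 49.2% had a lower mean and 9.88% were lower without overlap. Lyz2, the lysozyme gene, was at 1877, 4049 and 3001 in the libraries labelled knockdown and at 5899, 4269 and 4553 in wild type, without overlap. C1qb, a complement gene of tissue macrophages, was at 591, 1110 and 1023 against 1539, 1212 and 1115. In wild-type replicate 3, Mmp12 and the macrophage marker sum were both lowest of their group. Mmp12 was at 24.3 there and at 70.7 in replicate 2, while the marker sums were close, at 8270 and 8347. Pearson's r over the 6 libraries between log2 Mmp12 and the mean of the macrophage markers was 0.72, and with fibroblast markers it was 0.72 too. No macrophage marker in the list was at 0 throughout. The part of these cells in the levels of the 10 genes was not tested.

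Mmp2, the gelatinase that fibroblasts release in quantity, lies on chromosome 8 from 92827291 to 92853420, plus strand. It stood at 357, 450 and 396 in the libraries labelled knockdown, against 397, 441 and 540 in wild type. This was the steadiest gene of the 10, with a 1.51-fold range over all 6 libraries, and the groups overlapped. The log2 difference was -0.19 (SE 0.15, 95% interval -0.55 to 0.17, limma adjusted p = 0.546). It was -0.11 without knockdown-labelled replicate 1, -0.29 without wild-type replicate 1, -0.07 without wild-type replicate 3, -0.33 after rescaling to the same sum and -0.03 with libraries weighted by their spread.

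Mmp3, stromelysin-1, which cuts many matrix proteins and activates other MMPs, lies on chromosome 9 from 7445822 to 7455975, plus strand. Its values of 3.67, 5.76 and 7.98 in the libraries labelled knockdown overlapped those of 4.86, 9.44 and 10.1 in wild type. The log2 difference was -0.42 (SE 0.32, 95% interval -1.16 to 0.33, limma adjusted p = 0.519). It was -0.17 without knockdown-labelled replicate 1, -0.64 without replicate 3 of that label, -0.71 without wild-type replicate 1, -0.25 without wild-type replicate 3 and -0.03 with libraries weighted by their spread. At these levels, 3.16 to 11.3 steps, 1 step is a sizeable share of the value.

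Fibroblast markers as a list did not separate the groups. Among 9, 1 was higher without overlap and 1 higher at an unadjusted p under 0.05, against 12.6% and 8.29% of all tested genes. The summed level of 9 fibroblast markers was 5686, 8076 and 7422 in the libraries labelled knockdown and 7429, 7695 and 8591 in wild type, and 5 of 9 had a lower mean. Decorin (Dcn) was at 784, 828 and 877 against 639, 791 and 923, and Col1a2 at 2841, 4700 and 3815 against 4540, 4249 and 5227. For the 7 myofibroblast markers the sums were 5573, 8211 and 6491 in the libraries labelled knockdown and 6322, 6624 and 7765 in wild type. A lower mean log2 value was seen for 6 of 7 (median log2 difference -0.28), against 49.2% of all tested genes. Without overlap, 2 of these markers were lower, against 9.88% of all tested genes. At an unadjusted p under 0.05, 1 was lower, against 6.55% of all tested genes. The 2 most abundant of them, Postn (log2 difference 0.14, SE 0.20) and Cthrc1 (-0.01, SE 0.22), overlapped between groups, and Postn was the 1 marker with a higher mean. No marker of either list was at 0 throughout, and their part in the values of Mmp2, Mmp3 and Mmp14 was not tested.

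Turning to the inhibitors, Timp1, the inducible secreted inhibitor, lies on the X chromosome from 20870166 to 20874735, plus strand. It was at 292, 493 and 588 in the libraries labelled knockdown, against 584, 656 and 682 in wild type. The overlap between groups was slight and came from replicate 3 of the libraries labelled knockdown and replicate 1 of wild type. A log2 difference of -0.54 (SE 0.25, 95% interval -1.14 to 0.05, limma adjusted p = 0.354) did not pass, and without knockdown-labelled replicate 1 it was -0.25. Syn1, the neuronal gene that overlaps Timp1 on the minus strand, lay between 0.919 and 2.00 in all libraries.

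Timp2, the inhibitor that also serves as adaptor for MMP14, lies on the minus strand of chromosome 11 from 118301069 to 118355740. Values were 289, 444 and 372 in the libraries labelled knockdown and 415, 482 and 474 in wild type. Replicates 1 and 3 under the knockdown label lay below all of wild type, and replicate 2 did not. The log2 difference was -0.33 (SE 0.17, 95% interval -0.73 to 0.08, limma adjusted p = 0.386), and without knockdown-labelled replicate 1 it was -0.17. Cep295nl overlaps Timp2 on the same strand and was at 1.96 or below in every library.

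Timp3, the inhibitor that binds to the matrix and also blocks the sheddase ADAM17, lies on chromosome 10 from 86300372 to 86349506, plus strand. It was at 69.1, 72.1 and 54.9 in the libraries labelled knockdown, against 86.1, 66.7 and 132 in wild type. The groups overlapped through wild-type replicate 2, and wild-type replicate 3 was well above the rest. Its log2 difference was -0.48 (SE 0.24, 95% interval -1.05 to 0.09, limma adjusted p = 0.374), and -0.22 without wild-type replicate 3. Unlike the other lower genes, Timp3 was not lowest in knockdown-labelled replicate 1, and without that library its difference was -0.53. Syn3, which overlaps it on the minus strand, was not analysed here.

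Timp4, the inhibitor most typical of heart muscle and fat, lies on the minus strand of chromosome 6 from 115241892 to 115252205. Its values were 15.4, 0.907 and 6.99 in the libraries labelled knockdown and 4.89, 1.82 and 0.746 in wild type. Both groups spread widely, and the lowest library labelled knockdown lay below 2 of the 3 wild-type libraries. The log2 difference of 1.04 (SE 0.79, 95% interval -0.83 to 2.91, limma adjusted p = 0.523) was the least precise of the 10. It was 0.35 without knockdown-labelled replicate 1, 1.90 without replicate 2 of that label, 0.63 without wild-type replicate 3 and 0.04 with libraries weighted by their spread. Syn2, which overlaps Timp4 on the plus strand, was at 3.39, 0.945 and 2.00 in the libraries labelled knockdown and 1.95, 1.87 and 1.79 in wild type.

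Several marker lists moved with Timp4. The mean of 4 red cell markers, each as its log2 value minus the mean over the 6 libraries, was 1.89, -0.87 and 0.76 in the libraries labelled knockdown and 0.15, -0.86 and -1.08 in wild type, the same order of libraries as Timp4. Hbb-bs, a globin gene, was at 1374, 187 and 545 in the libraries labelled knockdown and 352, 175 and 139 in wild type. This relation was noticed after the values were seen. The endothelial score was 0.68, -0.36 and 0.23 against -0.15, -0.27 and -0.13. A higher mean was seen for 4 of 4 red cell and 7 of 8 endothelial markers. At an unadjusted p under 0.05, 1 endothelial and 0 red cell markers were higher, against 8.29% of all tested genes. The cardiomyocyte score, at 1.22, 0.24 and -0.44 against -0.32, -0.27 and -0.44, matched Timp4 in the highest library and not in the others. Adipocyte markers did not follow it: they were far lower in replicates 1 and 2 under the knockdown label (-3.75 and -3.36) than in replicate 3 (2.38) or wild type (0.90, 2.32 and 1.50). The score of pericyte and smooth muscle markers was 0.15, -0.20 and 0.06 against -0.14, -0.02 and 0.15. No marker of these lists was at 0 in all 6 libraries, and their part in Timp4 was not tested.

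**Figure D3:**
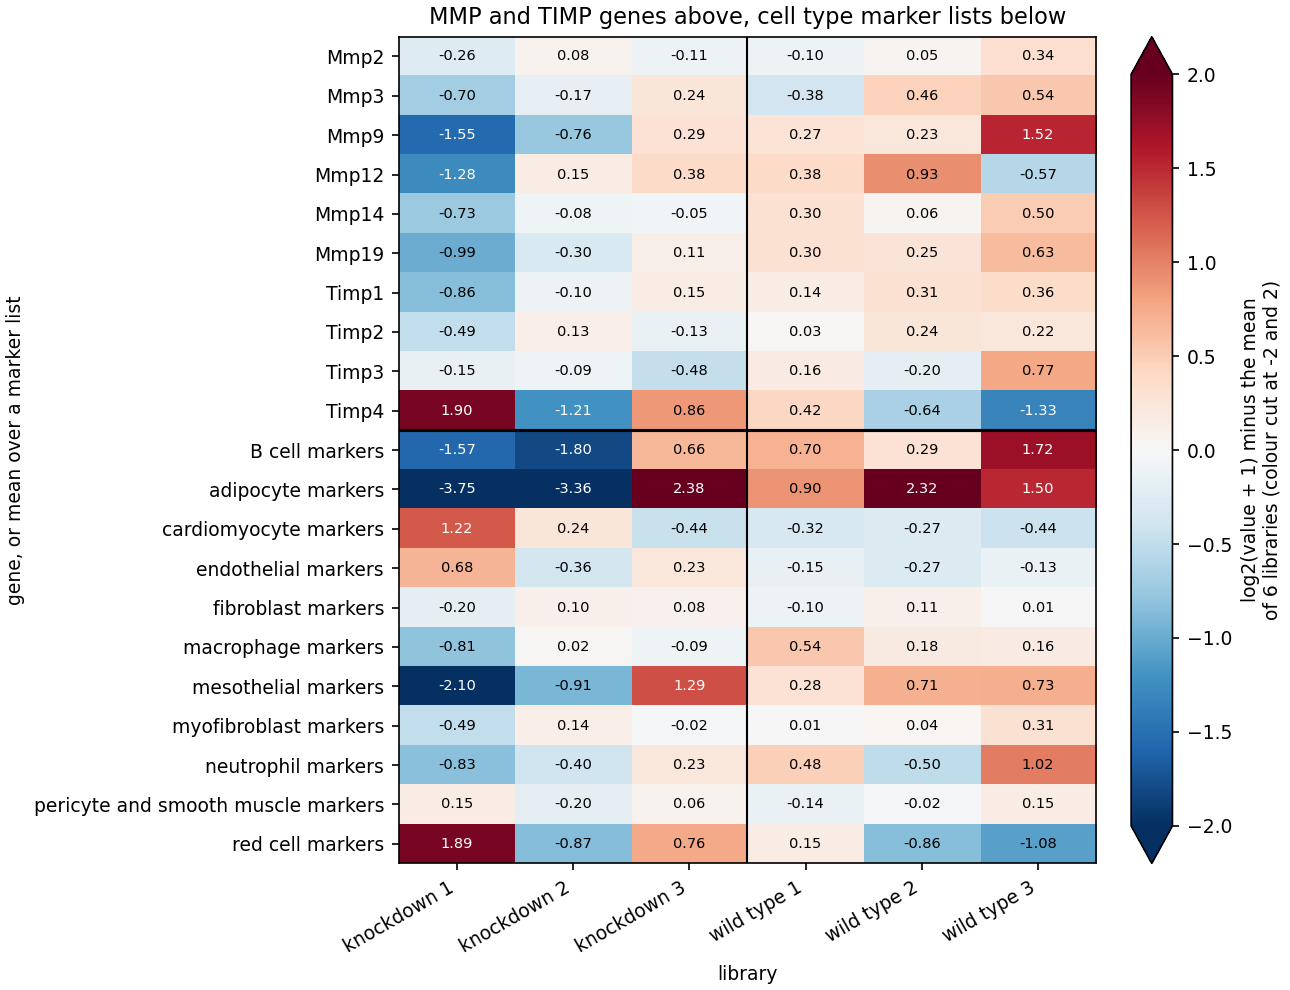
Log2(value + 1) of the 10 genes, above the line, and mean of each cell type marker list, below it, in each library, minus the mean of the 6 libraries; columns are libraries, with those labelled knockdown on the left, and red is higher. The first column is lowest for 8 of the 10 genes and for macrophage, neutrophil, fibroblast, myofibroblast, adipocyte and mesothelial markers. It is highest for Timp4 and for cardiomyocyte, endothelial and red cell markers.

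Across the 6 libraries, several of the 10 genes varied together. Pearson's r of the log2 values was 0.97 between Mmp14 and Mmp19 and between Mmp19 and Timp1, 0.96 between Mmp9 and Mmp19, and 0.92 between Mmp14 and Timp1. Timp4 ran opposite to Timp2 (-0.92) and Mmp2 (-0.91). Mmp12 and Timp3 followed few others, with r of -0.33 between them. Marker scores ran with or against the same genes. With cardiomyocyte markers, r was -0.97 for Timp1, -0.95 for Mmp19 and -0.89 for both Mmp14 and Mmp9. With mesothelial markers it was 0.92 for Timp1 and 0.89 for Mmp19, and with B cell markers 0.94 for Mmp9 and 0.89 for Mmp19. Neutrophil markers had 0.88 with Mmp9, 0.85 with Mmp14 and 0.82 with Mmp19. Adipocyte markers had 0.85 with Mmp19, 0.84 with Timp1 and 0.82 with Mmp9. Myofibroblast markers had 0.92 with Timp2, 0.90 with Mmp14, 0.89 with Mmp2, 0.88 with Timp1 and -0.91 with Timp4. Endothelial markers had -0.94 with Timp2 and 0.89 with Timp4. Macrophage markers had 0.90 with Mmp14, 0.86 with Timp1, 0.85 with Mmp19 and 0.81 with Timp2. Red cell markers had 0.98 with Timp4 and -0.98 with Timp2. Some other pairs of similar size are not listed. The part of these cells in the values was not tested. These are descriptions over 6 points that share the 2 groups and knockdown-labelled replicate 1, and their scale between libraries follows the authors' adjustment.

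The genes whose pattern over the 6 libraries was most like each of the 10, out of 10548 named genes with a mean of at least 5, were as follows. Timp1 was closest to Cpxm1 (r = 0.999) and Phf11b (0.995), and Mmp14 to Bmper (0.999) and Spats2 (0.998). Mmp19 was closest to Npl (0.997) and Ifi206 (0.996), and Mmp9 to Gdf11 (0.997) and Enc1 (0.994). Mmp12 was closest to Rpl19 (0.996) and Trmt112 (0.995), Mmp2 to Twsg1 and Ahcyl2 (0.982 and 0.981), and Mmp3 to Lgi2 (0.990) and Wdr43 (0.980). Among the other inhibitors, Timp2 was closest to Mogs and Unc50 (both 0.992), Timp3 to Tcea1 (0.998) and Syap1 (0.995), and Timp4 to Dpf2 (0.990). Cpxm1, for example, was at 35.7, 62.6 and 73.8 in the libraries labelled knockdown and 75.2, 82.7 and 86.3 in wild type, which follows Timp1 library by library. These are the highest of 10548 correlations over only 6 libraries, picked from the same values, so a high r is no test of a link. An r also ignores the size of the change: Rpl19 lay between 1667 and 2239, and Mmp12 between 14.5 and 70.7.

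Ratios of a protease to an inhibitor within a library do not depend on a common factor applied to the library. For all 6 proteases over all 4 inhibitors, the ratio of summed values was 0.846, 0.786 and 0.746 in the libraries labelled knockdown and 0.772, 0.710 and 0.801 in wild type. The sums behind it were 563, 794 and 762 for proteases and 665, 1010 and 1022 for inhibitors in the libraries labelled knockdown, against 842, 856 and 1032 and 1090, 1206 and 1288 in wild type. Both sums were lower in every library labelled knockdown than in any wild-type library, while their ratio overlapped between groups. The difference in log2 ratio was 0.06, within the spread of either group (SD 0.09 in each, n = 3). Abundant genes carried both sums, so the ratio says little about the low ones. In knockdown-labelled replicate 1, Mmp2 at 357 and Mmp14 at 180 made up most of the protease sum of 563. In the same library, Timp1 at 292 and Timp2 at 289 made up most of the inhibitor sum of 665.

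Among single pairs, the groups overlapped in all 5. Mmp2 over Timp2 was 1.24, 1.01 and 1.06 in the libraries labelled knockdown and 0.955, 0.916 and 1.14 in wild type. Mmp14 over Timp2, the pair that acts on the MMP2 precursor, was 0.623, 0.640 and 0.780 against 0.892, 0.649 and 0.897, with replicate 3 of the libraries labelled knockdown inside the wild-type range. Mmp14 over Timp3 (2.61 to 5.29 against 3.23 to 4.69) and Mmp12 over Timp1 (0.0497 to 0.0824 against 0.0356 to 0.108) overlapped fully. Mmp9 over Timp1 differed most, at 0.000384, 0.00188 and 0.00509 in the libraries labelled knockdown and 0.00502, 0.00430 and 0.0123 in wild type. Here the difference in mean log2 ratio was -2.06, with an SD of 1.88 in those libraries and 0.82 in wild type, and the groups overlapped; with 1 added to both values the difference was -0.81. It was -1.05 without knockdown-labelled replicate 1 and -2.92 without replicate 3 of that label. No p is given for these ratios, since the genes were chosen with earlier results known.

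**Figure D4:**
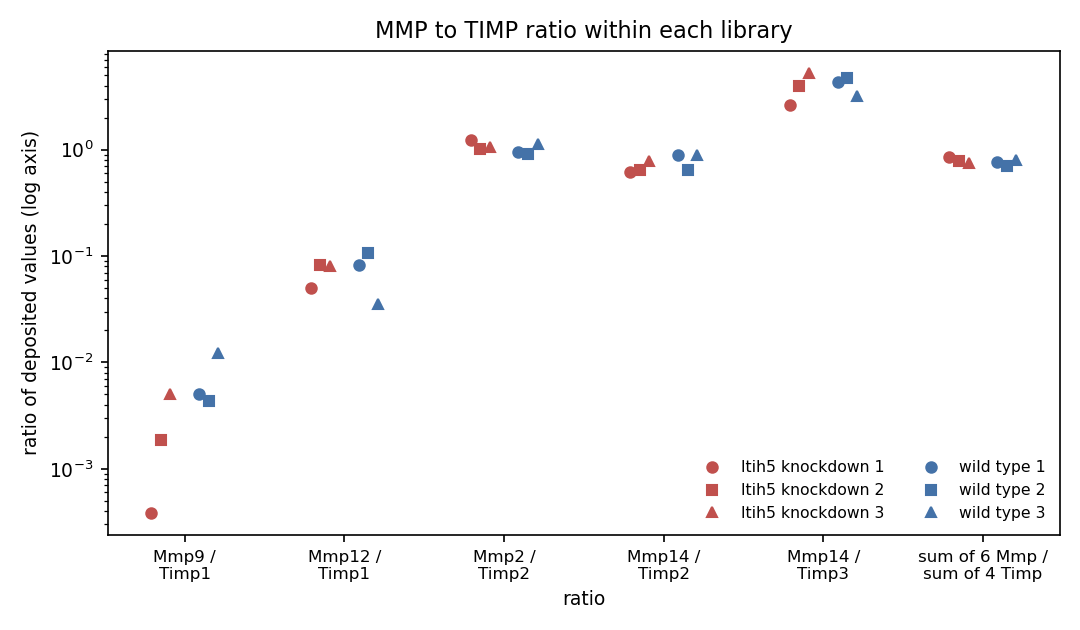
Ratio of protease to inhibitor values within each library (log axis); points are libraries, shaped by replicate number, with the libraries labelled knockdown left of wild type in each pair. Every ratio overlaps between the groups, and Mmp9 over Timp1 spreads most, from 0.000384 to 0.0123.

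The other MMP genes were mostly low and none passed the test. Of 17 listed, 10 were found in the table and 9 were tested. Of these 9, 8 had a lower mean in the libraries labelled knockdown, against 49.2% of all tested genes, with a median log2 difference of -0.29. At an unadjusted p under 0.05, 2 were lower, against 6.55% of all tested genes. Mmp23, the most abundant, was at 144, 231 and 241 in the libraries labelled knockdown and 227, 254 and 206 in wild type. Mmp11 was at 20.1, 30.9 and 26.9 against 31.3, 30.04 and 28.9. Both overlapped between groups.

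Mmp15, a membrane-bound relative of Mmp14, had a higher mean, at 38.4, 12.4 and 19.0 in the libraries labelled knockdown and 15.6, 13.1 and 14.2 in wild type (log2 difference 0.52, SE 0.35). Its highest value was in knockdown-labelled replicate 1, which had the highest sums of cardiomyocyte, endothelial, red cell, and pericyte and smooth muscle markers. Elsewhere Mmp15 did not keep the order of the cardiomyocyte sums. Replicate 2 of that label had the lowest Mmp15 value with a sum of 10652, and replicate 3 had 19.0 with a sum of 6382. The part of these cells in Mmp15 was not tested. Mmp8, the neutrophil collagenase, was at 0.0578, 1.93 and 2.99 against 3.92, 2.81 and 2.75. Mmp13 (1.22, 1.92 and 0.997 against 2.94, 1.87 and 2.73) and Mmp27 (1.22, 1.92 and 2.00 against 2.93, 2.82 and 2.73) reached at most 3.08 steps, and these were the 2 at an unadjusted p under 0.05. Mmp16, Mmp17 and Mmp28 had log2 differences of -0.29, -0.29 and -0.15 and overlapped between groups. Mmp25, which did not pass the filter, reached at most 0.998. Not analysed here were Mmp1a, Mmp1b, Mmp7, Mmp10, Mmp20, Mmp21 and Mmp24.

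Genes that activate MMP precursors were split. Of 7 tested, 3 had a lower and 4 a higher mean, with a median log2 difference of 0.03. At an unadjusted p under 0.05, 1 was lower (Furin) and 1 higher (Pcsk6), against 6.55% and 8.29% of all tested genes. None passed the adjusted test. The urokinase gene Plau, whose product makes plasmin, was at 33.1, 52.0 and 54.9 in the libraries labelled knockdown and 62.5, 62.0 and 60.7 in wild type (log2 difference -0.43, SE 0.19). Its receptor gene Plaur was at 14.2, 20.2 and 24.0 against 25.4, 25.4 and 24.5 (-0.38, SE 0.18). Furin, the convertase that activates the MMP14 precursor, was at 36.4, 46.2 and 42.9 against 52.8, 47.0 and 56.2 (-0.31, SE 0.12). All of these lay lower without overlap, although Plaur and Furin left gaps of less than 1 step. The related convertase gene Pcsk6 lay higher without overlap, at 49.5, 40.5 and 33.9 against 25.4, 29.1 and 30.4 (0.52, SE 0.15). Of all tested genes, 9.88% were lower and 12.6% higher without overlap.

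Genes listed as other inhibitors and clearance genes had a lower mean in 9 of 10 tested, against 49.2% of all tested genes (median log2 difference -0.21). None was at an unadjusted p under 0.05, where 6.55% of all tested genes were lower and 8.29% higher. Lrp1, the endocytic receptor that clears MMP and TIMP complexes, was at 73.7, 105 and 94.8 in the libraries labelled knockdown and 114, 107 and 114 in wild type (log2 difference -0.31, SE 0.14). It was the 1 gene of the list lower without overlap, against 9.88% of all tested genes. Thbs2, which clears MMP2 through that receptor, had -0.63 (SE 0.27). Pcolce2, a procollagen-processing gene rather than an inhibitor or clearance gene, was in the list and its counts, and had -0.30 (SE 0.17). Both overlapped between groups. Among 8 ADAM protease genes, 6 had a lower mean (median -0.12) and none was at an unadjusted p under 0.05, against the same shares of all tested genes. Adam8, a protease of leukocytes, was at 21.5, 44.4 and 43.9 against 77.3, 61.1 and 42.6, and Adam12 was at 11.04, 21.2 and 21.0 against 26.4, 20.6 and 37.5. Adam9 (-0.26, SE 0.18) and Adam15 (0.16, SE 0.12) differed less.

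Of 16 tested genes that induce MMPs, 11 had a lower mean (median -0.08), against 49.2% of all tested genes. At an unadjusted p under 0.05, 2 were lower, against 6.55% of all tested genes. Il1b, a cytokine that induces Mmp3 and Mmp9, was at 8.30, 7.66 and 14.97 in the libraries labelled knockdown and 14.6, 17.9 and 16.5 in wild type, with overlap (log2 difference -0.67, SE 0.23, limma adjusted p = 0.302). The other was the cytokine gene Il6, at 7.08, 8.67 and 7.98 against 12.7, 10.3 and 9.97, without overlap (-0.43, SE 0.13). The transcription factor genes Ets2 (0.48, SE 0.24) and Jund (0.24, SE 0.13) had higher means and overlapped. Of 18 matrix substrates, 12 had a lower mean (median -0.14), against the same 49.2% of all tested genes. At an unadjusted p under 0.05, 1 was lower, against the same 6.55% of all tested genes. This was Spp1, the osteopontin gene, at 417, 1161 and 995 against 2296, 1444 and 1530. Col1a1 (-0.41, SE 0.27), Fn1 (-0.35, SE 0.24) and Col5a1 (-0.35, SE 0.20) overlapped between groups.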

How the data were processed

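For 6 poly(A)-selected RNA libraries, the table the authors deposited holds 16205 rows, each a gene symbol with 1 score per library. It is named as TPM, but the columns sum to between 901563 and 1159657 and the values between 0.5 and 3.5 steps lie near whole multiples of a library's step (97.3% to 100% within 0.15 steps), so the score is read as TPM adjusted further, by steps not given in the sources used here. Genome build mm10 is named by the submitters' processing notes, whereas aligner and quantifier are not given. Per the labels' protocols, 2 kits were used for library preparation, with no assignment to libraries. The table has no counts, so depth is unknown and no count model or interval from counts was used. The design allowed for TPM or counts and the test for normalized values was kept.

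Where a symbol occurred more than once, the row of highest mean stayed (6 rows left out). Log2(value + 1) was fitted for genes with a mean of at least 1 using limma 3.58.1 in R 4.3.3 (intensity trend, no covariate, Benjamini-Hochberg over 14025 genes); differences on this scale understate changes of low genes. The fit was tested on simulated data. Coordinates are from GENCODE M21, which held 16018 of the symbols. Start regions and their letters are from RefSeq. Counting strand is not given, so reads of overlapping genes cannot be told apart. Named are all 10 genes, all other listed MMPs, genes overlapping a member, the 4 smallest p-values of each other list, the 2 most abundant markers of each list discussed, and for each member the 2 genes of most like pattern; unnamed gene models were skipped, and some genes this rule names are not reported here. Tmem198b and Cep295nl were added from the annotation, and the GC box motif was added after the start regions were seen. Members and lists were chosen with earlier results of these data known. Alternatives covered pseudocount, filter, scaling, trend, library weights, replicate block and leaving out each library.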

Additional observations from a re-analysis of the deposited data

How the results depend on the processing

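None of the 10 genes passed the adjusted threshold under any of 16 alternatives (lowest limma adjusted p 0.181), and 158 of 159 values kept their direction and stayed short of the threshold; Mmp9 fell under the filter when a mean of at least 5 was asked for. The exception was Mmp12, whose difference ran from -0.90 to 0.018 (without knockdown-labelled replicate 1) when each library was left out in turn. The median of the 10 genes ran from -0.67 to -0.21 and the number of them lower at an unadjusted p under 0.05 from 0 (without wild-type replicate 3) to 4; with library weights the median was -0.34. Over all genes, 0 to 13 passed as lower in fits on 5 libraries (13 without knockdown-labelled replicate 3, 2 without wild-type replicate 2), none of them members, and 0 as higher. At an unadjusted p under 0.05, 1162 genes were higher and 919 lower, and leaving out libraries gave 655 to 1366 higher and 338 to 1229 lower (924 and 543 without knockdown-labelled replicate 1). Rescaling columns to the same sum gave 457 higher and 1395 lower, moved the median of all genes to -0.13 and that of the 10 genes to -0.63; leaving out mitochondrial genes gave 1470 and 640. With the replicate number as a block (a paired fit), 5 of the 10 were lower at an unadjusted p under 0.05, against 3 without it, and 0 genes passed. Same-numbered libraries deviated together at r = 0.0559, 0.0608 and 0.143 and differently numbered ones at -0.109 to 0.0595; 5 of 6 correlated best with their own number. Not every pair exceeded 0.1 and the labels give no pairing, so the fit without the block was kept, though a pairing may exist. The cause of these changes was not tested.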
